A study of Homo sapiens with 13 samples.

Results

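The genes described are 8 receptor and surface marker genes of myeloid cells: FLT3, KIT, CSF1R, CSF3R, CD33, CD14, ITGAM and FCGR1A. They were taken by name, out of 20033 protein-coding genes of the RefSeq annotation of GRCh38.p14, and every peak that touched a gene's span extended by 1 kb on each side was collected. This gave 64 of the 136507 peaks in the 11 deposited lists. The study profiled chromatin bound by GFP-tagged DNMT1 with an anti-GFP antibody (ChIP-seq) in MV-4-11, a human acute myeloid leukaemia cell line of monocytic type known to carry an activated FLT3. All cells except the parental ones overexpressed an ectopic GFP-tagged DNMT1, and their endogenous DNMT1 gene was targeted with a guide (gDNMT1). The groups were NTC (wild-type GFP-DNMT1 and the control guide gNTC, to compare with UHRF1KO), UHRF1KO (wild-type GFP-DNMT1 with a guide against UHRF1), WT (wild-type GFP-DNMT1 without a further guide) and RFTSdel (GFP-DNMT1 without its RFTS domain). Each received DMSO or the DNMT1 inhibitor GSK-3685032 at 100 nM (DNMT1i) for 7 days. There were 2 libraries of RFTSdel for each treatment, 1 of each of the other lines for each treatment, and 1 of untreated parental cells without GFP. The labels do not say whether a line was a clone or whether the RFTSdel replicates came from separate cultures.

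DNMT1 is the methyltransferase that copies CpG methylation onto the new strand after replication. UHRF1 binds hemimethylated DNA and modified histone H3 and brings DNMT1 there, and the RFTS domain of DNMT1 takes part in this targeting and folds over the catalytic domain. The 8 genes fall into groups by role. FLT3, KIT and CSF1R encode related receptor tyrosine kinases for the FLT3 ligand, stem cell factor and the macrophage growth factors CSF1 and IL-34. CSF3R encodes the cytokine receptor for the granulocyte factor G-CSF. CD33 is a sialic acid binding inhibitory receptor, CD14 the co-receptor for bacterial lipopolysaccharide, ITGAM the alpha chain of the integrin CD11b/CD18, and FCGR1A the high-affinity receptor for IgG. FLT3 and KIT mark progenitors, and the others are markers of granulocytes, monocytes or macrophages.

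The sequences just before 4 of the starts are shown because peaks lay at or near them although their sequences differ: the starts of FLT3 and KIT are rich in CpG, the substrate of DNMT1, and the second listed start of CSF1R and the start of CD33 are poor in it. Each is the 250 bases before the annotated start, read along the gene from RefSeq (GRCh38.p14), with every CpG in capitals.
FLT3 (chr13:28100577-28100826, minus strand): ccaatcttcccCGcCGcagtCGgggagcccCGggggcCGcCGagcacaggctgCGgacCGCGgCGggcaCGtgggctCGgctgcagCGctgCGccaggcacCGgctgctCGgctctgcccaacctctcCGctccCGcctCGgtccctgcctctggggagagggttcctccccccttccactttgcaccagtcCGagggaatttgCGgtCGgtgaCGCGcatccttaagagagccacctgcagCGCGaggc
KIT (chr4:54657707-54657956, plus strand): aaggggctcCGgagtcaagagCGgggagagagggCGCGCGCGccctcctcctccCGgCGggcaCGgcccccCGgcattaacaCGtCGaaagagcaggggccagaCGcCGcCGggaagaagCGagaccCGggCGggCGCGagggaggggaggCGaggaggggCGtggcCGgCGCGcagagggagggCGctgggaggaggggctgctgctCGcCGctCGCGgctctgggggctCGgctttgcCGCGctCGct
CSF1R, second start (chr5:150086555-150086804, minus strand): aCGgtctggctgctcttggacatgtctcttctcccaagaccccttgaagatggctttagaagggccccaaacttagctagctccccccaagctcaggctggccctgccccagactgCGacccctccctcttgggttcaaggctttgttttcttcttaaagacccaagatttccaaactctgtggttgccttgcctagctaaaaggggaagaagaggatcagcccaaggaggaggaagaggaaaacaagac
CD33 (chr19:51224830-51225079, plus strand): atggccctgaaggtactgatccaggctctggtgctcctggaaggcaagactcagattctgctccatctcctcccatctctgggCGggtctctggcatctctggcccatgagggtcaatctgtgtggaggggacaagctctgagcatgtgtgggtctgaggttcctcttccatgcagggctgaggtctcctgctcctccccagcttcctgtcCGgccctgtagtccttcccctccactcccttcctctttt
These stretches hold 26 CpG in FLT3, 34 in KIT, 2 in CSF1R and 2 in CD33. Peaks covered the FLT3 stretch in 8 of 10 GFP-DNMT1 libraries, the CSF1R stretch was reached in 2 and the CD33 stretch in 3. No peak reached the KIT stretch, although it is the richest in CpG of the 4: the KIT peaks nearest to it, 1 in each DMSO library, began between 366 and 521 bases after the start.

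Each list holds the peaks called in 1 library, and between 4323 and 32954 peaks were called in the 10 GFP-DNMT1 libraries. The lists carry no read counts, so the sequencing depth is unknown, and a longer list can mark more genes of every kind. The parental list (426 peaks) had none at the 8 genes, against 2.71% of all protein-coding genes, and none of the 64 peaks overlapped a parental peak. The lists measure occupancy and not expression, so they give no check of the surface phenotype of the cells or of the loss of UHRF1.

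Under DMSO most of the 8 genes had a peak, and after DNMT1i few did. NTC DMSO had a peak at 7 of the 8 genes (all protein-coding genes: 62.5%), UHRF1KO DMSO at 7 (67%) and WT DMSO at 6 (54.8%). RFTSdel DMSO had 4 in replicate 1 (53.1%) and 6 in replicate 2 (56.2%). These shares, 50% to 87.5% of 8 genes, lay above the background of their own list except in RFTSdel replicate 1. The 8 genes are also longer, with a median span of 44506 bases against 24130 for all genes. The part of gene length in these shares was not tested. A peak in all 5 DMSO libraries was found at 4 of the 8 genes (FLT3, KIT, CSF1R and FCGR1A), against 41.7% of all genes and 50.1% of genes of 50 to 100 kb, the size of FLT3, KIT and CSF1R. After DNMT1i the number was 1 in NTC (background 22.6%), 2 in UHRF1KO (22.9%) and 0 in WT (15.2%). It was 2 in each RFTSdel DNMT1i replicate (35.9% and 49.2%), a smaller share of these genes (25%) than of all genes. As 1 gene is 12.5% of the 8, these shares move in coarse steps, and no difference from the background was tested.

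The mean change was −4.6 genes ± 1.67 (SD, n = 5 pairs), from 6 ± 1.22 genes to 1.4 ± 0.894, and all 5 pairs were lower after DNMT1i. Within the experimental batches named in the sample labels, the change was −4 ± 2 in batch 1 (n = 3 pairs, from WT and RFTSdel) and −5.5 ± 0.707 in batch 2 (n = 2 pairs, from NTC and UHRF1KO). Over all protein-coding genes the share with a peak changed by −29.6 percentage points ± 16.4 (n = 5). This share also fell more in batch 2 (−42.0 points) than in batch 1 (−21.3 points). By pair it changed by −39.6 points in WT and by −17.2 and −7.00 in the RFTSdel replicates of batch 1. In batch 2 it changed by −39.8 in NTC and −44.1 in UHRF1KO. No line was in both batches, so batch and construct cannot be told apart. With all lists cut to the length of the shortest (4323 peaks, by −log10 q) the change at the 8 genes was −0.8 ± 1.64 genes, and that of all protein-coding genes −2.12 percentage points. With a −log10 q minimum of 4 these were −1.8 genes and −18.3 points. After the cut to equal length, 4 of the 8 genes were marked in NTC under DMSO and 1 after DNMT1i. These counts were 2 and 0 in WT, and 2 and 2 in UHRF1KO. They were 2 and 2 in RFTSdel replicate 1, and 1 and 2 in replicate 2, so not every pair was lower. FLT3 remained marked in all 5 DMSO libraries and in 4 after DNMT1i, KIT, CSF3R, CD14 and ITGAM in none.

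The 55 DMSO peaks and 9 DNMT1i peaks formed 23 separate sites when peaks that overlapped by 1 bp were joined. Of these, 9 sites were called in 1 library only and 4 in 5 or more, against 49.7% and 22.8% of the merged regions of the genome. Every site had a DMSO call, as had 43899 of the 49148 merged regions of the genome. Only 4 of the 23 also had a DNMT1i call (28.2% of DMSO regions genome-wide): the FLT3 start, a site deep in FLT3, the CD33 start and a site in FCGR1A. No site was called after DNMT1i alone, which also holds for most merged regions of the genome.

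FLT3 (chromosome 13, 28003274 to 28100576, minus strand) was the most widely occupied of the 8 genes. It had a peak in 9 of 10 libraries, which 7.16% of all protein-coding genes reached or exceeded. Its peaks covered 5267 bases of NTC under DMSO against 990 after DNMT1i, 4942 against 1688 of UHRF1KO, and 2519 against 0 of WT. For RFTSdel they covered 1444 and 842 bases in replicate 1 and 3251 and 1128 bases in replicate 2. Each line was lower after DNMT1i than its own DMSO library, and the groups overlapped only through RFTSdel DMSO replicate 1 (1444) and UHRF1KO DNMT1i (1688). The mean difference was −2555 bases ± 1365 (SD, n = 5 pairs), and the exact two-sided sign-flip permutation test gave p = 0.0625 (adjusted over 15891 genes 0.168), the smallest p that 5 pairs allow. Fewer covered bases in all 5 pairs, as also at KIT and CSF1R, were found at 28.8% of all protein-coding genes. Counting only peaks with −log10 q of 4 or more, the FLT3 difference was −1669 bases, and counting only bases within 1 kb of a gene end it was −949.

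The 26 FLT3 peaks lay at 8 sites, and 2 of these were called in 8 libraries each. At the start, a peak was called in all 5 DMSO libraries and after DNMT1i in UHRF1KO and both RFTSdel replicates, but not in NTC or WT. This was among the strongest peaks of the lists under DMSO: by the authors' −log10 q it ranked 708 of 23990 in NTC, 129 of 32954 in UHRF1KO and 273 of 17119 in WT. In RFTSdel DMSO it ranked 124 of 12660 in replicate 1 and 105 of 14443 in replicate 2, with a fold of signal over background of 7.21 and 7.25. The FLT3 start therefore stood at percentile 97.1 or higher of each DMSO list. After DNMT1i it ranked 304 of 7861 and 95 of 11495 in RFTSdel, where its fold was 4.32 and 5.44. In UHRF1KO DNMT1i it ranked 1130 of 5042, with a fold of 3.70.

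The DMSO peaks at the FLT3 start were not equally wide. The NTC peak measured 1568 bp, that of UHRF1KO 849 bp and that of WT 923 bp, and the RFTSdel peaks 1057 and 2477 bp. The 3 DNMT1i peaks there were between 761 and 848 bp. All of them covered the start itself. Counted from the start along the gene, the DNMT1i peaks began between −376 and −308 and ended between 452 and 486 bases, and the DMSO peaks began between −1445 and −349 and ended between 499 and 1057 bases.

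The other recurrent FLT3 site lay inside the gene, between 67061 and 69420 bases after the start (chromosome 13, 28031156 to 28033515). It was called in 8 of 10 libraries: all 5 under DMSO and NTC, UHRF1KO and RFTSdel replicate 2 after DNMT1i. Its peaks were 2027 and 990 bp in NTC DMSO and DNMT1i, 1611 and 927 bp in UHRF1KO, and 1225 bp in WT DMSO. In RFTSdel they were 387 bp under DMSO in replicate 1, and 1219 bp and 280 bp under DMSO and DNMT1i in replicate 2. Each line with a peak under both treatments had the narrower one after DNMT1i. In NTC DNMT1i it was the only FLT3 peak (−log10 q 2.94, fold 3.71). WT DNMT1i had neither.

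The remaining 6 FLT3 sites were called under DMSO only, each in 1 to 3 libraries, and none in RFTSdel. Among them, the site 3851 to 5113 bases after the start was called in NTC, UHRF1KO and WT. A site just beyond the far end of the gene, 97594 to 99380 bases after the start, was called in NTC and UHRF1KO. These were the longest lists, and the peaks there had a fold of 3.09 and 3.13.

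**Figure D1:**
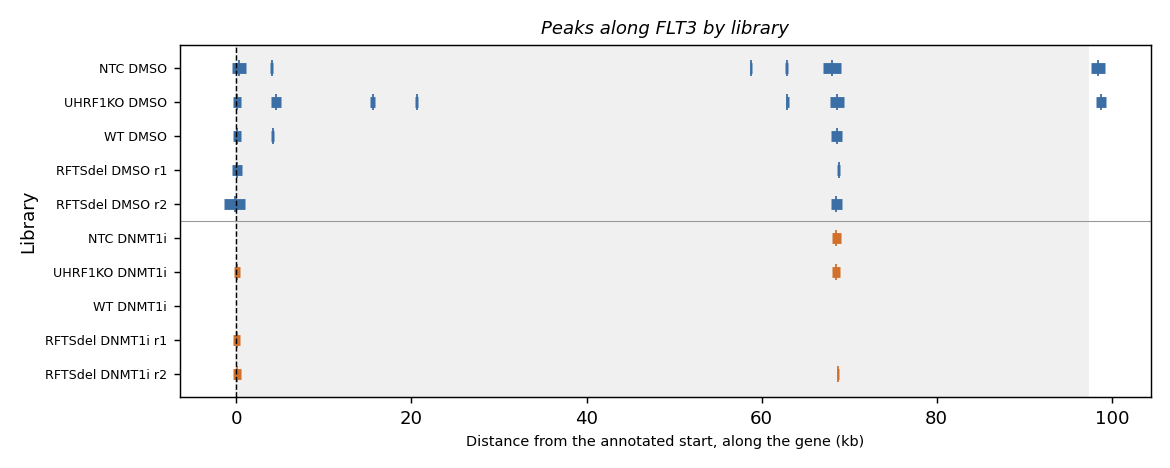
Peaks along FLT3 in each GFP-DNMT1 library (rows; blue DMSO, orange DNMT1i) by distance from the annotated start in kb (x axis; dashed line at the start, grey the gene span, bars drawn to scale with a tick at their middle). Peaks line up at the start and at a site 67 to 69 kb into the gene in 8 libraries each, and the scattered peaks elsewhere are in NTC, UHRF1KO and WT under DMSO.

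KIT (chromosome 4, 54657957 to 54740715, plus strand) was marked in each of the 5 DMSO libraries and never after DNMT1i, a pattern shown by 4.32% of all genes and 4.81% of those of 50 to 100 kb. Under DMSO its peaks covered 510 bases of NTC, 728 of UHRF1KO and 1486 of WT, with 655 in replicate 1 and 1248 in replicate 2 of RFTSdel, and after DNMT1i they covered 0. The groups did not overlap. The mean difference was −925 bases ± 419 (n = 5 pairs; exact sign-flip permutation p = 0.0625, adjusted 0.168). The same libraries taken as 2 unpaired groups of 5 gave an adjusted p of 0.0385 by an exact permutation test. That test drops the pairing, and every gene marked in all 5 DMSO and no DNMT1i library reaches the same p. The share of all genes passing it was not counted. The recurrent site lay 366 to 1956 bases after the start, and it was not strong: its percentile of −log10 q within the list was 27.4 for WT, 38.3 for UHRF1KO and 47.6 for NTC, and 49.3 and 54.9 for the RFTSdel replicates. It is 1 of the regions called in all 5 DMSO and no DNMT1i library, which make up 2.92% of merged regions. With a −log10 q minimum of 2 or 4, or a fold minimum of 4, only the RFTSdel peaks counted and the difference was −276 bases.

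CSF1R (chromosome 5, 150053295 to 150113365, minus strand) showed the same calls as KIT, marked under DMSO in 5 of 5 libraries and after DNMT1i in 0 of 5. The DMSO peaks covered 1409 bases of NTC, 1666 of UHRF1KO and 1032 of WT, with 315 in replicate 1 and 760 in replicate 2 of RFTSdel. Here the RFTSdel libraries were the lowest of the DMSO group. The mean difference was −1036 bases ± 532 (n = 5 pairs; exact sign-flip permutation p = 0.0625, adjusted 0.168, and 0.0385 with the libraries unpaired). As for KIT, the calls alone set the unpaired p, and the share of all genes passing that test was not counted. In contrast to KIT, no single CSF1R site was shared by all 5 libraries, and the 11 peaks lay at 4 sites. The difference was −539 bases with a −log10 q minimum of 2, −225 with a fold minimum of 4, and −70.8 with a −log10 q minimum of 4 or lists of equal length.

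The most frequent CSF1R site (150081854 to 150082622) was called in NTC, UHRF1KO, WT and RFTSdel replicate 1 under DMSO. In NTC it had a fold of 6.47 and a −log10 q of 6.90 and ranked 560 of 23990 in its list. In RFTSdel replicate 1 the −log10 q was 2.30 and the rank 10349 of 12660. It lies 3932 to 4700 bases after the second of the 2 CSF1R starts in the table, which is 26811 bases inside the first. The second start itself was covered in UHRF1KO DMSO and WT DMSO by short peaks of 213 and 263 bp. Neither library nor any other had a peak over the first, outer start, whose upstream region adjoins the platelet-derived growth factor receptor gene PDGFRB. RFTSdel replicate 2 had only a weak peak at another site (150065469 to 150066228, percentile 1.08 of its list), which NTC and UHRF1KO shared.

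CSF3R (chromosome 1, 36466043 to 36483314, minus strand) had a peak in 2 libraries, both under DMSO. NTC had a peak of 1274 bp and RFTSdel replicate 2 had 1 of 410 bp. Both covered the second of its 2 listed starts (36482913) and neither was strong, with −log10 q of 1.70 and 1.30. The mean difference was −337 bases ± 553 (n = 5 pairs; exact sign-flip permutation p = 0.5, adjusted 0.606), and 2 of 5 pairs were lower with the other 3 at 0. It was −102 without the NTC pair and 0 with any of the higher minimums, and −1094 with a 5 kb extension (1189 bases under DMSO and 95 after DNMT1i). The wider window takes in a recurrent site beyond the far end of the gene. It also takes in a peak before the first listed start in NTC DMSO and UHRF1KO DMSO, 3144 and 2860 bases from the gene.

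CD33 (chromosome 19, 51211076 to 51240016, plus strand) had 662 covered bases in NTC DMSO, 827 in UHRF1KO DMSO and 498 in WT DMSO, and 0 and 215 in the RFTSdel DMSO replicates. After DNMT1i it had 404 in UHRF1KO and 0 in the other 4 libraries. CD33 was the only gene of the 8 at which UHRF1KO alone kept a peak. That peak was weak, with a −log10 q of 1.52, a fold of 3.80 and rank 3861 of 5042 in its list. It did not count with a −log10 q minimum of 2 or a fold minimum of 4. The share of all genes at which UHRF1KO alone kept a peak was not counted. The mean difference was −360 bases ± 257 (n = 5 pairs, 4 lower and 1 at 0 in both; exact sign-flip permutation p = 0.125, adjusted 0.228), −238 in batch 1, −542 in batch 2 and −192 without the 1 kb extension.

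The CD33 peaks lay at 2 sites with different libraries. The site at the near edge of the span (51210824 to 51211321), at −14256 to −13759 bases from the listed start, was called in NTC, UHRF1KO, WT and RFTSdel replicate 2 under DMSO. In NTC it had a fold of 6.08 and a −log10 q of 6.91 (rank 555 of 23990). It overlaps the lncRNA gene LOC124904751 and the pseudogene SIGLEC22P, so it cannot be assigned to CD33 alone. The CD33 start itself was covered in NTC DMSO (251 bp), UHRF1KO DMSO (415 bp) and UHRF1KO DNMT1i (404 bp). The UHRF1KO peaks had almost the same ends under both treatments (51224855 to 51225269 under DMSO and 51224871 to 51225274 after DNMT1i).

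CD14 (chromosome 5, 140631732 to 140633701, minus strand), the shortest of the 8 genes, had a peak of 222 bp over its start in NTC DMSO, with a fold of 4.31. In UHRF1KO DMSO a peak of 668 bp reached 11 bases into the extended span from upstream. Peaks at nearly the same place in NTC (140634842 to 140635254) and WT DMSO (140634945 to 140635367) lay 1141 and 1244 bases from the gene and were not counted. CD14 lies inside the span of TMCO6, so these peaks belong to both annotations. ITGAM (chromosome 16, 31259975 to 31332877, plus strand) had 1 peak of 225 bp over its start in UHRF1KO DMSO and 1 of 251 bp, 42051 bases into the gene, in WT DMSO. Both genes were at 0 after DNMT1i, with differences of −46.6 ± 98.2 bases for CD14 and −95.2 ± 131 for ITGAM (n = 5 pairs, 2 lower each; exact sign-flip permutation p = 0.5, adjusted 0.606 for both). Without the NTC pair CD14 was at −2.75 bases, and with a 5 kb extension at −427. ITGAM rested on 1 library in each of 2 pairs, with −56.2 without the WT pair and −62.8 without the UHRF1KO pair. CSF3R, CD14 and ITGAM were each marked in 2 libraries, and 33% of all genes were marked in 2 or fewer.

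FCGR1A (chromosome 1, 149782694 to 149800609, plus strand) was the only one of the 8 genes with more covered bases after DNMT1i in RFTSdel, where CD14 and ITGAM had 0 under both treatments. Under DMSO its peaks covered 615 bases of NTC, 1400 of UHRF1KO and 651 of WT, and after DNMT1i 0 in all 3 lines. In RFTSdel they covered 764 and 818 bases in replicate 1 and 781 and 896 bases in replicate 2, DMSO first. More bases after DNMT1i in both RFTSdel pairs and fewer in the other 3 were found at 2.73% of all genes. A gene marked in all 5 DMSO libraries, both RFTSdel DNMT1i libraries and no other DNMT1i library was not rare (11.9% of all genes). Over the 5 pairs the mean difference was −499 bases ± 619 (exact sign-flip permutation p = 0.25, adjusted 0.363). It was −161 in batch 1 and −1008 in batch 2, −274 without the UHRF1KO pair, and turned positive, 33.8 and 67 bases, with a −log10 q minimum of 4 and with lists of equal length.

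The recurrent FCGR1A site (149792448 to 149793352) was called in these 7 libraries with peaks of 615 to 896 bp. Its −log10 q in the RFTSdel replicates was 6.12 and 6.18 under DMSO and 6.22 and 6.12 after DNMT1i, in lists called separately. Its percentile within the list was 66.0 and 67.5 under DMSO and 96.3 and 93.3 after DNMT1i. A percentile depends on the other peaks of its list. Their median −log10 q was 4.49 and 4.42 under DMSO and 2.40 and 2.62 after DNMT1i. These positions therefore do not measure a change of the site itself. In WT DMSO the same site had a −log10 q of 1.71 and a percentile of 27.7. The site is 9754 to 10658 bases into FCGR1A, and no peak touched the FCGR1A start. It lies at the start of LOC124904411, a protein-coding gene on the opposite strand (start at 149793220), which 5 of the 7 peaks covered and of which the other 2 ended 9 bases short. The histone gene H2BC18 spans the same interval. FCGR1A has near-identical copies on chromosome 1, and how multiply mapping reads were treated is not given in the sources used here, so the values at this site are uncertain as values of FCGR1A.

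**Figure D2:**
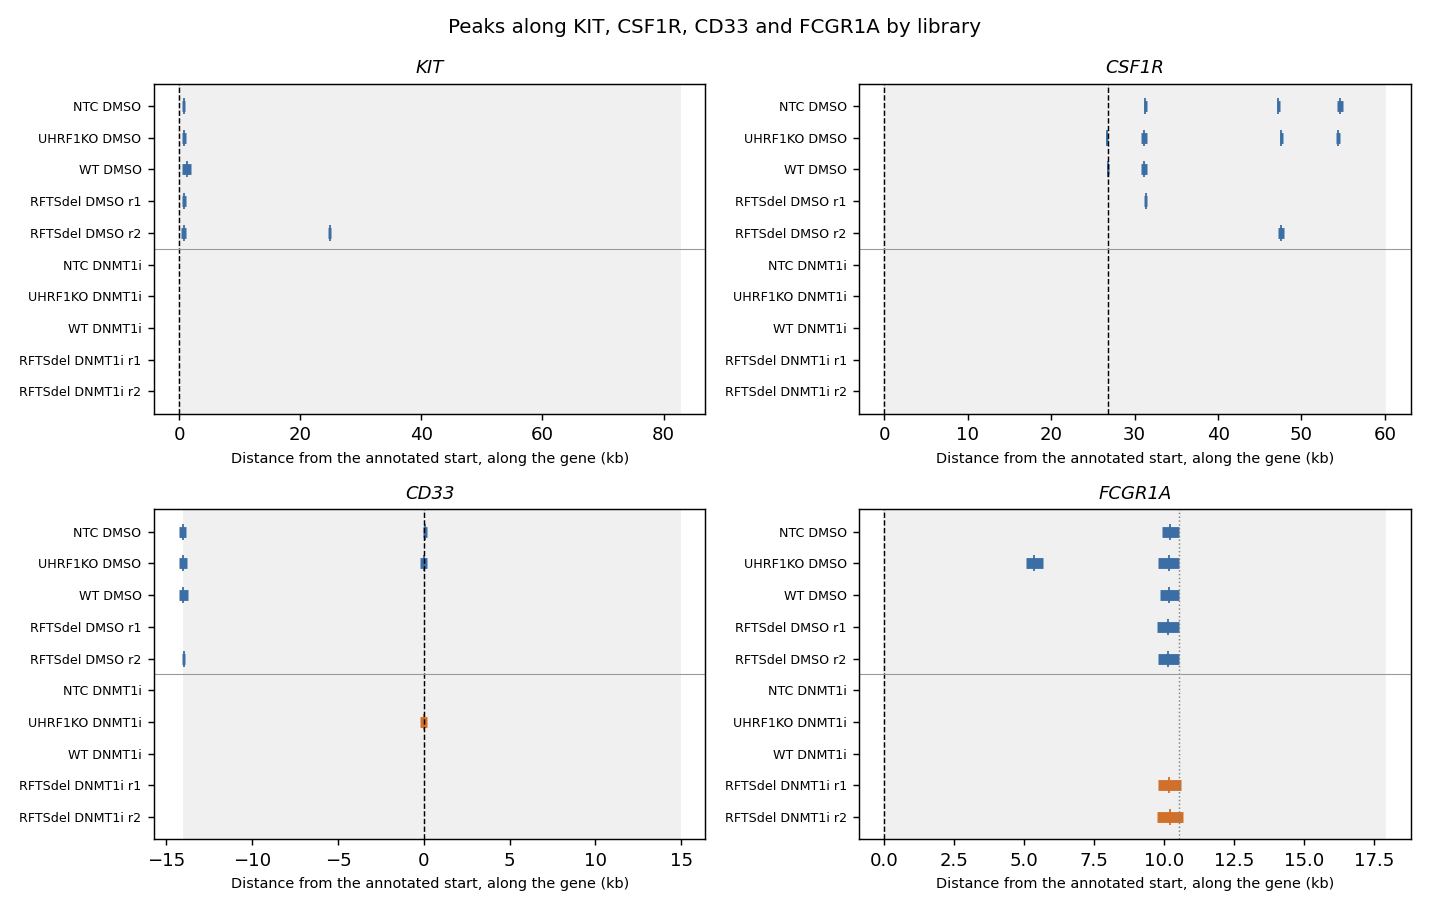
Peaks along KIT, CSF1R, CD33 and FCGR1A in each GFP-DNMT1 library (rows; blue DMSO, orange DNMT1i) by distance from the outermost listed start in kb (x axis; dashed lines at listed starts, grey the gene span, dotted line at the start of LOC124904411). KIT and CSF1R have no orange bar, CD33 has 1 in UHRF1KO, and FCGR1A has 1 in each RFTSdel replicate at the site of the blue bars.

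Between constructs, single libraries were set side by side without a test. Under DMSO, UHRF1KO and NTC covered similar lengths of FLT3 (4942 and 5267 bases) and CSF1R (1666 and 1409 bases). FCGR1A was covered more in UHRF1KO (1400 bases) than in NTC (615 bases). CSF3R was marked in NTC and not in UHRF1KO (1274 and 0 bases), and ITGAM in UHRF1KO and not in NTC (225 and 0 bases). After DNMT1i the FLT3 and CD33 starts were called in UHRF1KO (5042 peaks in its list) and not in NTC (6194 peaks). These UHRF1KO peaks had a −log10 q of 3.11 at FLT3 and 1.52 at CD33, and the cause of the difference was not tested. Under DMSO, CD33 was covered less in the RFTSdel replicates (0 and 215 bases) than in WT (498 bases), and so was CSF1R (315 and 760 against 1032 bases). FCGR1A was covered slightly more (764 and 781 against 651 bases), and the WT value for FLT3 (2519 bases) lay between those of the RFTSdel replicates (1444 and 3251 bases). After DNMT1i, WT had no base of any of the 8 genes covered and RFTSdel covered FLT3 and FCGR1A. The lists differ in length in these comparisons (17119 peaks in WT DMSO, 12660 and 14443 in RFTSdel DMSO, and 4323, 7861 and 11495 after DNMT1i), and the part of list length in them was not tested.

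The promoter table lists 10 start windows of 300 bases for the 8 genes (250 bases before the start and the first 50 of the transcript). FLT3 and KIT, with 34 and 38 CpG, were in the most CpG-rich of 3 classes (29 to 69 CpG) into which 22198 windows of protein-coding genes were split by CpG number. The other 8 windows held between 1 (FCGR1A) and 9 (the second start of CSF3R) and were in the most CpG-poor class (0 to 12 CpG). Windows of the CpG-rich class were overlapped by a peak in all 5 DMSO libraries in 55.9% of cases and in at least 3 DNMT1i libraries in 26.2%, as the FLT3 window was on both counts. The KIT window, with more CpG, was overlapped in 0 libraries. In the CpG-poor class these shares were 1.5% and 0.169%, and none of the 8 CpG-poor windows reached either. In the CpG-rich class, 72.0% of windows were overlapped in RFTSdel DNMT1i replicate 2 and 55.0% in replicate 1, against 25.3% in UHRF1KO, 21.3% in NTC and 14.1% in WT after DNMT1i. The FLT3 start was called in the first 3 of these 5 libraries and not in the last 2.

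The CpG-poor starts that did carry a peak were those of CD33 (3 libraries), CSF1R and CSF3R at their second starts (2 each), CD14 and ITGAM (1 each). Of all CpG-poor windows, 4.14% to 10.5% were overlapped in a single DMSO library and 0.311% to 1.50% in a single DNMT1i library. The letters GAGGAA, a core of sites bound by the myeloid factor PU.1, were counted on both strands of the 300-base windows (its first base can also be the G of a CpG). They occurred 3 times in the CD33 window, 3 times in that of the second CSF1R start, 2 times in ITGAM, and once each at the second CSF3R start, CD14, FCGR1A and FLT3. They were not found in the KIT window or the first windows of CSF1R and CSF3R. Of all windows, 27.9% held the letters, and a match is a description of the sequence and not a binding site.

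Genes of the same pathways were counted in the same way. Of 23 signalling genes below these receptors, 22 or 23 had a peak in each DMSO library and 5 to 22 after DNMT1i. GRB2, an adaptor that binds activated receptor kinases, was marked in all 10 libraries, and the PI3-kinase gene PIK3CD and STAT5B in 9. Of 11 further cytokine and growth factor receptors, 8 to 10 were marked under DMSO and 0 to 7 after DNMT1i, led by IFNGR2 and IL6ST in 8 libraries and IFNGR1 and TGFBR1 in 7. Of 7 ligand genes, 1 to 4 were marked under DMSO and 0 to 2 after DNMT1i. FLT3LG, the ligand of FLT3, was marked in 7 libraries, CSF1 in 6, and IL34 and KITLG, the ligand of KIT, in 3 each, KITLG in 1 under DMSO and 2 after DNMT1i.

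Of 48 other myeloid surface genes, 18 to 32 were marked under DMSO and 1 to 11 after DNMT1i, and 33 had no DNMT1i peak in any library. Among the 8 genes this was 5 of 8, and among all genes 39.1%. CD38, IL1RAP and the integrin genes ITGA4 and ITGAL were marked in 7 libraries. Of 24 lymphoid and erythroid surface genes, which stand for other lineages, 1 to 8 were marked under DMSO and 0 to 2 after DNMT1i, led by the transferrin receptor TFRC in 7 libraries, NCR1 in 4, and CD8A and CD8B in 3. CD8A, a T cell co-receptor gene, was marked after DNMT1i only, in 3 libraries against 0 under DMSO. The share of all genes marked after DNMT1i only was not counted. The median number of marked libraries was 5 for the 8 genes and for all protein-coding genes, 7 for signalling genes, 6 for further receptors, 3 for ligands, 2 for other myeloid surface genes and 0 for lymphoid and erythroid ones. The median gene span also differed, from 12017 bases for ligands to 86066 for signalling genes, against 24130 for all genes, and its part in these counts was not tested. Covered bases were lower in all 5 pairs at 3 of the 8 genes, 15 of 23 signalling genes, 5 of 11 receptors, 1 of 7 ligands, 10 of 48 myeloid surface genes and 1 of 24 lymphoid and erythroid genes, against 5760 of 20033 (28.8%) of all protein-coding genes. They were higher in all 5 at none of the listed genes and at 169 of all 20033. The median difference was −430 bases for the 8 genes and −297 for all protein-coding genes. No gene passed an adjusted p of 0.05, nor an unadjusted p of 0.05, in the exact sign-flip permutation test, since 5 pairs cannot.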

How the data were processed

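Each of the 11 lists holds broad peaks called in a single library. The submitters' processing notes name cutadapt, BWA, Picard, MACS2 and deepTools, and the build GRCh38. For versions, settings and the control library, nothing is given in the sources used here. In these lists the deposited fold column is the authors' ratio of peak signal to background. The deposited −log10 columns are the authors' −log10 p and −log10 q. The deposited score column was not used. Fold and −log10 q rank peaks within a list. Values from different lists are given side by side and not compared, since depth is unknown, and the alternatives with fixed minimums carry the same limit. The 2 input samples have no file used here. Batch numbers follow the sample labels. The series' design text swaps them.

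A gene was marked when a peak touched its RefSeq span extended by 1 kb. Covered bases were compared over 5 DMSO and DNMT1i pairs (RFTSdel paired by replicate number) by exact sign-flip permutation, two-sided, on every protein-coding gene, with Benjamini-Hochberg adjustment over the 15891 genes with a peak. Values of covered bases move with list length. The p-values measure only the spread between these libraries, which may be technical. The genes and lists were chosen with earlier results of these data known. All 8 genes are named. From each further list the 4 genes marked in the most libraries are named (1 of them is not reported here), and for each gene marked in at least 3 libraries the 2 genes most like it. Peaks were not filtered in the main counts. Alternatives removed parental peaks, raised the −log10 q or fold minimum, equalised list length, changed the gene window, left out pairs or broke the pairing. Sequences matched all 8 genes by symbol. The overlap and test code returned 5 of 5 known answers on simulated data and the NTC DMSO list. Python 3.11.15, numpy 2.4.6 and pandas 2.3.3 were used.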

Additional observations from a re-analysis of the deposited data

Results flagged for a closer look

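Covered bases at FCGR1A changed in opposite directions between constructs. Both RFTSdel pairs were higher after DNMT1i, by a mean of 84.5 bases, and the NTC, UHRF1KO and WT pairs were all lower, with a mean of −889 bases. In RFTSdel the peak at the start of LOC124904411 was called under both treatments and was longer after DNMT1i. The other lines had no FCGR1A peak after DNMT1i. The difference between constructs was not tested. This pattern, higher in both RFTSdel pairs and lower in the other 3, was found at 2.73% of protein-coding genes.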

How the results depend on the processing

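The mean number of the 8 genes with a peak was lower after DNMT1i under all 17 alternatives, with a change between −5.5 and −0.8 genes. Removing parental peaks and dropping the pairing could not change this number or the direction of any of the 8 genes. No peak at the 8 genes overlapped a parental peak, and a mean difference does not depend on pairing. Against −4.6, a −log10 q minimum of 4 gave −1.8 and lists cut to equal length gave −0.8. Both leave fewer peaks. With lists of equal length the number was unchanged in UHRF1KO and RFTSdel replicate 1 and rose in RFTSdel replicate 2. Leaving out an RFTSdel replicate gave −5.25 to −4.75. The pairs left out for other lines, chosen after seeing the data, gave −4.25 to −4.5. For covered bases of single genes, 120 of 136 values kept their direction and their side of the threshold. Except without the pairing the side was fixed in advance, since the sign-flip test cannot reach 0.05 with 5 pairs or fewer. The mean change of FCGR1A turned to 33.8 bases with the −log10 q minimum of 4 and to 67 bases with lists of equal length, and the cause was not tested. A further 12 values became 0 because no peak was left. Pairing was by construct, and within RFTSdel by a replicate number whose libraries did not deviate together (r = 0.0024 across 15891 genes, which are not independent). Without the replicate block the change in the number of genes is −4.6 by construction, since a mean difference does not depend on pairing. The exact permutation test of 5 against 5 libraries then gave adjusted p = 0.0385 for KIT and CSF1R, and no other of the 8 genes passed (FLT3: 0.0575). This test drops the pairing by construct. Genes whose DMSO and DNMT1i values do not overlap all reach its smallest p. Among them are the 4.32% of all genes marked in all 5 DMSO and no DNMT1i library, so passing is not particular to KIT and CSF1R. The share of all genes that passed was not counted. Depth limits every zero here: a missing peak is a peak not called.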

Other observations

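A recurrent site lay just outside the window used for CSF3R. Beyond the far end of the gene, 1328 to 1624 bases from it (chromosome 1, 36463846 to 36464715), a peak was called in 7 libraries: all 5 under DMSO, and UHRF1KO and RFTSdel replicate 2 after DNMT1i. Its fold was 3.78 to 4.97 and its −log10 q 1.65 to 4.63. With a window of 5 kb in place of 1 kb the mean change of CSF3R was −1094 bases in place of −337. That window also takes in a peak on the other side of the gene in NTC DMSO and UHRF1KO DMSO.

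The genes whose covered bases were most like those of a gene described here, by Pearson's r of log2(covered bases + 1) over the 10 libraries, were NEDD8 (0.997) and FBXW11 (0.995) for FLT3, LTV1 and PPP1R12A for KIT, DCAF4 and BIN3 for CSF1R, SLC38A8 and IQCN for CD33, and CCNI and AVPI1 for FCGR1A. All of these had the same calls in 10 of 10 libraries as the gene they resemble, and r is then set mostly by which libraries are at 0. The same calls were found at 695 other genes for FLT3, 864 for KIT and for CSF1R, 2391 for FCGR1A and 16 for CD33. Points share the library and its list length, and no p is given.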
